A study of Mus musculus with 8 samples.

Results

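The transcripts of 42 genes whose products replicate DNA or carry cells through mitosis were followed across 8 arrays of pancreatic beta cell samples from C57BL/6 mice, 4 from mice on a high-fat diet and 4 from mice on a chow control diet. The genes were found by name among the probes of the scanner files: 61 of 39429 probes carried one of the 42 names, and 36 of the 42 genes had a probe well above background on at least 4 of the 8 arrays, of 19997 genes that did so in all. The arrays were 1-colour Agilent mouse arrays with Cy3, 1 for each biological replicate, and lay on 2 slides. Slide 1 held high-fat replicates 1 and 2 and control replicates 1 and 2, and slide 2 held high-fat replicates 3 and 4 and control replicates 3 and 4. The labels give no age, sex, length of diet or composition of the diets, and the sources used here do not say how the cells were isolated or whether animals were pooled. The p-values below measure the spread between samples that the labels call biological replicates.

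Levels are log2 signals relative to the 75th percentile of the same array, so a level of 0 is the brightness that 3 in 4 non-control spots stay below. The 75th percentile lay between 362.7 and 475.8 intensity units on the high-fat arrays and between 335.8 and 715.4 on the control arrays, no spot was saturated, and arrays correlated with each other at an r of 0.964 to 0.987 over all genes. The number of arrays limits the precision. On both slides the high-fat arrays lay at positions 2 and 4 and the control arrays at positions 1 and 3, so position and diet cannot be told apart. The 10 beta cell markers, among them Ins1, Ins2, Mafa and Slc2a2, were measured on all 8 arrays, with a mean level of 4.89 to 5.24 on the high-fat arrays and 5.08 to 5.25 on the control arrays. Markers of alpha, delta and PP, acinar, endothelial and other cells were well above background too. The 10 acinar markers had mean levels of 6.95 to 7.79 on the high-fat arrays and 6.67 to 7.77 on the control arrays. Their mean thus lay above that of the beta cell list on every array. These means depend on the genes listed and do not give shares of cells. In bulk RNA, fewer cells of a type and less RNA per cell cannot be told apart.

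A cell that leaves rest first loads the MCM helicase onto replication origins and stocks deoxynucleotides, under the control of E2F transcription factors and cyclin E. Later it makes cyclins A and B, which activate the kinase Cdk1, then the spindle proteins and the anaphase-promoting complex that destroys the cyclins again at the end of mitosis. Adult mouse beta cells divide seldom, and a high-fat diet is known as one of the conditions under which their division has been studied. Genes of the second wave share promoter elements: CCAAT boxes bound by NF-Y, and the cell cycle homology region with the core TTTGAA, bound by the MuvB complexes, whereas many genes of the first wave carry E2F sites, for which TTTNNCGC is a common form. The 42 genes were split accordingly into 19 that act in G1 and S phase and 23 that act in G2 and mitosis.

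Windows at annotated starts of genes show how the 2 waves differ in these elements. Those of Cdk1 and Ccnb1 (second wave) and of Mcm5 and E2f1 (first wave) are given 5′ to 3′ from RefSeq on GRCm38.p6. Each runs from 250 bases before to 50 bases after an annotated start. Capitals mark 3 motifs: CCAAT, which reads ATTGG when it lies on the other strand, then TTTGAA, which reads TTCAAA there, and TTTNNCGC, which reads GCGNNAAA there.
Cdk1 (chr10:69352863-69353162, - strand): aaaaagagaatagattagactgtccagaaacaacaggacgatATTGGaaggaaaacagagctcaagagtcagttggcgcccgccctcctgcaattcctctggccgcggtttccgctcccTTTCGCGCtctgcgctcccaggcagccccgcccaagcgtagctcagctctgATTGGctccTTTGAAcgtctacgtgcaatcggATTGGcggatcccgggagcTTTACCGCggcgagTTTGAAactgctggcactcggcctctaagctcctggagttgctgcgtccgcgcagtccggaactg
Ccnb1 (chr13:100786437-100786736, - strand): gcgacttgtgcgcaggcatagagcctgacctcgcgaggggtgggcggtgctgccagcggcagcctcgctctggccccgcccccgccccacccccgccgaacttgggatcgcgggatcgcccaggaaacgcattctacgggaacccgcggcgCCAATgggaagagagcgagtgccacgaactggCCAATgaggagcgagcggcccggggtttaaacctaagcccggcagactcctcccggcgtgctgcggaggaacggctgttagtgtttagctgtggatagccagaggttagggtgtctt
Mcm5 (chr8:75109259-75109558, + strand): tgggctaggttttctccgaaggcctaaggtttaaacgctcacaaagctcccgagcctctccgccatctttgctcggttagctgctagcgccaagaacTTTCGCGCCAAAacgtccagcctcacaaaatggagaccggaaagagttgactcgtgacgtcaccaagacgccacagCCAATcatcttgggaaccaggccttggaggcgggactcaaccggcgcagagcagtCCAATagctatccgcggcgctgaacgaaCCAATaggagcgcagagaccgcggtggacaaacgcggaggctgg
E2f1 (chr2:154569377-154569676, - strand): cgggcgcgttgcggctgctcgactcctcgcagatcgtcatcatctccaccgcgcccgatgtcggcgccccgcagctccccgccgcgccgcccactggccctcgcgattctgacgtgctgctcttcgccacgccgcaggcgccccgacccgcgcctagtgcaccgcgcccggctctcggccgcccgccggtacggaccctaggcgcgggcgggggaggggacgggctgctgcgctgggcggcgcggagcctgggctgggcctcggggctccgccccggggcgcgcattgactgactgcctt
The Cdk1 window held 3 matches to CCAAT, 2 to TTTGAA and 2 to TTTNNCGC. The Ccnb1 window held 2 matches to CCAAT and none to the other motifs. The Mcm5 window held 3 matches to CCAAT and 2 to TTTNNCGC, which overlap each other on opposite strands. The E2f1 window held no match to any of the 3. Its first part reads as E2F1 coding sequence, so its annotated start lies downstream of the coding start. The window therefore says nothing about the E2f1 promoter upstream of that coding start. RefSeq windows were found for 35 of the 42 genes, 38 windows in all. Of the 20 windows of G2/M genes, 90% held CCAAT and 75% TTTGAA, against 61.1% and 11.1% of the 18 windows of G1/S genes and 37.4% and 17.9% of all 32851 windows of that length. For TTTNNCGC the order was the other way round, with 5% of the G2/M windows, 38.9% of the G1/S windows and 5.17% of all windows. Both CCAAT and TTTGAA lay in 75% of the G2/M windows and in 6.95% of all windows. A match is a description of these letters and not evidence of binding, and a window without a match says only that the letters are not in it.

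The proliferation genes had their highest signal on the 2 high-fat arrays of slide 2 and their lowest signal on high-fat array 1 of slide 1. The median level of the 36 genes was -2.57 on high-fat array 1, -1.80 on high-fat array 2, -1.19 on high-fat array 3 and -0.71 on high-fat array 4, against -1.81, -2.07, -2.06 and -2.18 on control arrays 1 to 4. The 4 control arrays therefore lay within a narrow band, and the 4 high-fat arrays on both sides of it. Both high-fat arrays of slide 2 stood above all other arrays for 21 of the 36 genes, a pattern that 5.32% of all genes showed. High-fat array 1 was the lowest array for 25 of the 36, against 9.70% of all genes.

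**Figure D1:**
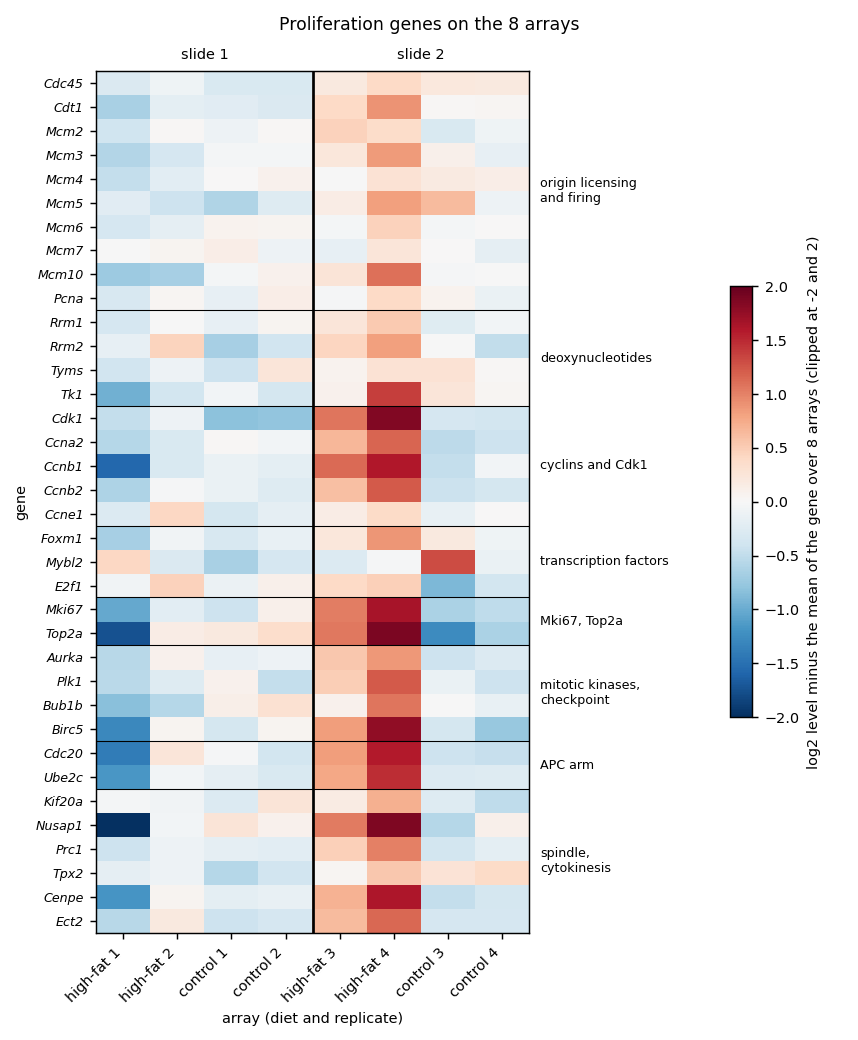
Level of each of the 36 proliferation genes (rows, grouped by role) on the 8 arrays (columns, slide 1 left and slide 2 right, high-fat before control), as the log2 level minus the mean of the gene over the 8 arrays, with the colour scale clipped at -2 and 2. High-fat arrays 3 and 4 are red in most rows from Cdk1 downward, high-fat array 1 is blue in most rows, and Mybl2 and Tpx2 differ from their neighbours.

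Mki67, which encodes the Ki-67 protein that coats mitotic chromosomes and is widely used to mark dividing cells, had levels of -1.90 and -1.10 on high-fat arrays 1 and 2 and of 0.15 and 0.76 on high-fat arrays 3 and 4, against -1.29, -0.78, -1.51 and -1.38 on control arrays 1 to 4. The pair of high-fat arrays on slide 2 stood above every control, and high-fat array 1 stood below every control, so the diets overlapped. On slide 1 the level in the high-fat samples minus that in the controls was -0.46, and on slide 2 it was 1.90, a 3.74-fold higher signal in the high-fat samples. The difference between the slides, slide 1 minus slide 2, was -2.36 ± 0.48 (SE), with an unadjusted p of 0.0024 and an adjusted p of 0.708 in the limma fit over all genes. On a second Mki67 probe high-fat arrays 3 and 4 were again the highest and high-fat array 1 the lowest, while high-fat array 2 lay below 3 of the controls, with -2.46 and -1.68 on high-fat arrays 1 and 2 and -0.19 and 0.56 on high-fat arrays 3 and 4, against -1.54, -1.12, -1.87 and -1.58 on the controls.

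Top2a, the topoisomerase that untangles sister chromatids, had levels of -5.61, -3.73, -2.83 and -2.0 on high-fat arrays 1 to 4, against -3.68, -3.51, -5.12 and -4.50 on control arrays 1 to 4. Its probe was not well above background on high-fat array 1 and on control array 3. The log2 difference on slide 1, -1.08, therefore includes 1 high-fat array not well above background, and the 5.29-fold higher signal on slide 2 includes 1 such control array. The difference between the slides, -3.48 ± 0.87 (SE, unadjusted p 0.0065, adjusted p 0.708 in limma), includes both and depends on the processing: it was 0.34 with normexp and -0.77 with normexp without the 7 smeared spots of high-fat array 2, and -0.43 with the deposited table.

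The probes behind these values are 60-base oligonucleotides whose positions in the scanner files are on mm9. Those of 60 bases given here, 5′ to 3′, belong to 4 G2/M genes with the pattern just described, and those of Birc5 and Ccnb1 were chosen after their values were seen. Each has at least 1 reading frame without a stop codon. The brighter Birc5 probe that stands for the gene has 0 such frames, and so have the Cdk1 probes. Of these 4 only the Top2a probe stands for its gene in the fits.
Mki67 A_55_P2073377 (chr7:142884764-142884823, - strand): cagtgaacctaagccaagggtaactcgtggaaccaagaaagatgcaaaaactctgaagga
Top2a A_55_P1995205 (chr11:98855522-98855581, - strand): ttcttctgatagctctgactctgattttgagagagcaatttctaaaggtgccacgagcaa
Birc5 A_55_P1983768 (chr11:117711112-117711171, + strand): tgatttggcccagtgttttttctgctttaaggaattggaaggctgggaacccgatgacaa
Ccnb1 A_55_P2128668 (chr13:101553449-101553508, - strand): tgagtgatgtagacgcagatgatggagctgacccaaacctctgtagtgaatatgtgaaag
The Birc5 probe was well above background on high-fat arrays 2, 3 and 4 and on control arrays 1 and 2, with levels of -7.19, -4.67, -3.37 and -2.30 on high-fat arrays 1 to 4, against -3.76, -4.24, -5.21 and -5.20 on control arrays 1 to 4. The Ccnb1 probe was well above background on high-fat arrays 3 and 4 alone. Both therefore had the highest signal on the high-fat arrays of slide 2, like the brighter probes that stand for these genes.

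Among the cyclins and Cdk1, signal on slide 2 was higher in the high-fat samples for all 5 genes measured. Ccnb2, a mitotic cyclin, had levels of -2.46, -1.88, -1.24 and -0.62 on high-fat arrays 1 to 4, against -1.98, -2.11, -2.28 and -2.21 on control arrays 1 to 4. The high-fat arrays of slide 1 lay on either side of the controls, and those of slide 2 lay above all controls (2.49-fold on slide 2). Ccna2, which acts in S phase and at the entry into mitosis, and Ccnb1, the main partner of Cdk1, had log2 differences of -0.42 and -0.77 on slide 1 and were 2.61-fold and 3.11-fold higher on slide 2. The brightest Cdk1 probe had higher signal on both slides, 1.43-fold on slide 1 and 3.51-fold on slide 2, but the probes of the gene disagreed. A dimmer one, not well above background on control arrays 1 and 2, had log2 differences of 1.28 on slide 1 and 0.26 on slide 2, and another was well above background on control arrays 2 and 4 alone. Ccne1, the G1/S cyclin, differed from these, with levels of -0.32, 0.36, 0.11 and 0.34 on high-fat arrays 1 to 4, against -0.39, -0.23, -0.19 and -0.04 on control arrays 1 to 4. The diets differed by 0.33 on slide 1 and by 0.34 on slide 2 (log2), and only high-fat array 1 lay among the controls. A dimmer Ccne1 probe went the other way, with log2 differences of -0.26 and -0.20. It was well above background on high-fat array 2 and control arrays 1 and 2 alone.

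Of the 4 measured mitotic kinases and checkpoint genes, Birc5, Aurka and Plk1 had high-fat arrays 3 and 4 on top and high-fat array 1 lowest, like Mki67. Birc5, which encodes survivin of the chromosomal passenger complex, had levels of -2.68, -1.34, -0.56 and 0.37 on high-fat arrays 1 to 4, against -1.76, -1.34, -1.75 and -2.15 on control arrays 1 to 4. Aurka, a kinase of the spindle poles, had levels of -2.19, -1.54, -1.09 and -0.76 on high-fat arrays 1 to 4, against -1.80, -1.74, -2.06 and -1.91 on control arrays 1 to 4. For both genes high-fat array 1 was the lowest of the 8 and high-fat array 4 the highest. On slide 2 Birc5 was 3.61-fold, Aurka 2.07-fold and Plk1, which drives centrosome maturation and mitotic entry, 2.19-fold higher. Bub1b, a spindle checkpoint kinase, was not well above background on either high-fat array of slide 1, where its signal was at least 1.5-fold lower than in the controls of that slide, and it was 1.58-fold higher on slide 2, with high-fat array 3 below control arrays 1 and 2.

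Both measured genes of the anaphase-promoting complex arm had that shape too. Cdc20, its activator, had levels of -3.06, -1.43, -0.82 and -0.08 on high-fat arrays 1 to 4, against -1.69, -2.03, -2.07 and -2.12 on control arrays 1 to 4. Ube2c, its ubiquitin-conjugating enzyme, had levels of -3.56, -2.46, -1.63 and -0.93 on high-fat arrays 1 to 4, against -2.59, -2.70, -2.68 and -2.66 on control arrays 1 to 4. The 4 Ube2c controls lay within a log2 range that the high-fat arrays exceeded on both sides, with an SD of 1.13 in the high-fat samples and 0.049 in the controls (n = 4 each). Signal on slide 2 was 3.12-fold higher for Cdc20 and 2.62-fold higher for Ube2c, and a further Ube2c probe had a log2 difference of -0.23 on slide 1 and 1.99 on slide 2.

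Of 6 measured genes of the spindle and of cytokinesis, 5 had higher signal on slide 2 in the high-fat samples. Prc1, which bundles the microtubules of the central spindle, had levels of -1.73, -1.42, -0.84 and -0.31 on high-fat arrays 1 to 4, against -1.49, -1.53, -1.68 and -1.51 on control arrays 1 to 4. Cenpe, a kinetochore motor, had levels of -3.53, -2.29, -1.64 and -0.73 on high-fat arrays 1 to 4, against -2.54, -2.49, -2.82 and -2.69 on control arrays 1 to 4. In both genes the 2 high-fat arrays of slide 2 stood apart at the top. Nusap1, which stabilises spindle microtubules, had levels of -6.85 and -4.19 on high-fat arrays 1 and 2, against -3.89 and -4.05 on control arrays 1 and 2, with high-fat array 1 not well above background, and was 3.23-fold higher on slide 2. Ect2, which activates RhoA for cytokinesis, was 2.34-fold and the kinesin Kif20a 1.76-fold higher on slide 2. The exception was Tpx2, which activates Aurora A, with a log2 difference of -0.03 on slide 2, and its probes disagreed: a dimmer probe of the gene, well above background on 5 arrays, had -7.19, -4.74, -3.14 and -2.59 on high-fat arrays 1 to 4, against -4.47, -5.18, -5.13 and -4.39 on the controls.

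The genes of origin licensing and firing varied less. Pcna, the sliding clamp of the replication fork, had levels of 1.36, 1.70, 1.65 and 2.07 on high-fat arrays 1 to 4, against 1.51, 1.80, 1.75 and 1.53 on control arrays 1 to 4. Mcm6, a subunit of the replicative helicase, had levels of 1.09, 1.24, 1.38 and 1.87 on high-fat arrays 1 to 4, against 1.49, 1.48, 1.38 and 1.42 on control arrays 1 to 4. For both genes high-fat array 4 alone stood above the controls. On slide 1 the 10 genes of this role had log2 differences from -0.72 to 0.12, and on slide 2 from -0.03 to 0.70, with a median of 0.22. The largest on slide 2 were those of Mcm10, which helps to start the fork, at 0.70, the licensing factor Cdt1 at 0.62, and the helicase subunits Mcm2 at 0.61 and Mcm3 at 0.58. Mcm4, Mcm5 and Mcm7, further helicase subunits, stood at -0.03, 0.22 and 0.13. Cdc45, which completes the active helicase, followed the slide and not the diet, with levels of -3.53, -3.34, -3.05 and -2.85 on high-fat arrays 1 to 4, against -3.56, -3.56, -3.04 and -3.06 on control arrays 1 to 4.

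Of the genes that supply deoxynucleotides, the 2 subunits of ribonucleotide reductase had different patterns. Rrm2, the small subunit made in S phase, had levels of -0.69, -0.09, -0.11 and 0.29 on high-fat arrays 1 to 4, against -1.19, -0.91, -0.54 and -1.03 on control arrays 1 to 4. Only high-fat array 1 and control array 3 crossed, and the signal was 1.58-fold higher on slide 1 and 1.83-fold higher on slide 2. Rrm1, the large subunit, had levels of -0.80, -0.48, -0.23 and 0.05 on high-fat arrays 1 to 4, against -0.64, -0.42, -0.71 and -0.53 on control arrays 1 to 4. It followed Mki67, with both high-fat arrays of slide 2 on top and high-fat array 1 lowest. Tk1, thymidine kinase of the salvage pathway, had log2 differences of -0.46 on slide 1 and 0.59 on slide 2, and Tyms, thymidylate synthase, of -0.15 on slide 1 and 0.02 on slide 2.

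The 3 measured transcription factors did not move together. E2f1, the activator of the G1/S genes, had levels of -0.50, 0.03, -0.03 and 0.05 on high-fat arrays 1 to 4, against -0.56, -0.34, -1.33 and -0.80 on control arrays 1 to 4. Its high-fat arrays other than the first stood above all controls. Mybl2, the B-Myb subunit of the activating MuvB complex, had levels of 0.07, -0.63, -0.62 and -0.36 on high-fat arrays 1 to 4, against -1.0, -0.68, 0.97 and -0.48 on control arrays 1 to 4. Control array 3 was the highest and control array 1 the lowest, and a second Mybl2 probe measured on all 8 arrays had log2 differences of 0.00 on slide 1 and -0.30 on slide 2. Foxm1, the forkhead factor of the G2/M genes, had log2 differences of -0.13 on slide 1 and 0.50 on slide 2, and a second Foxm1 probe -0.30 and -0.05.

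**Figure D2:**
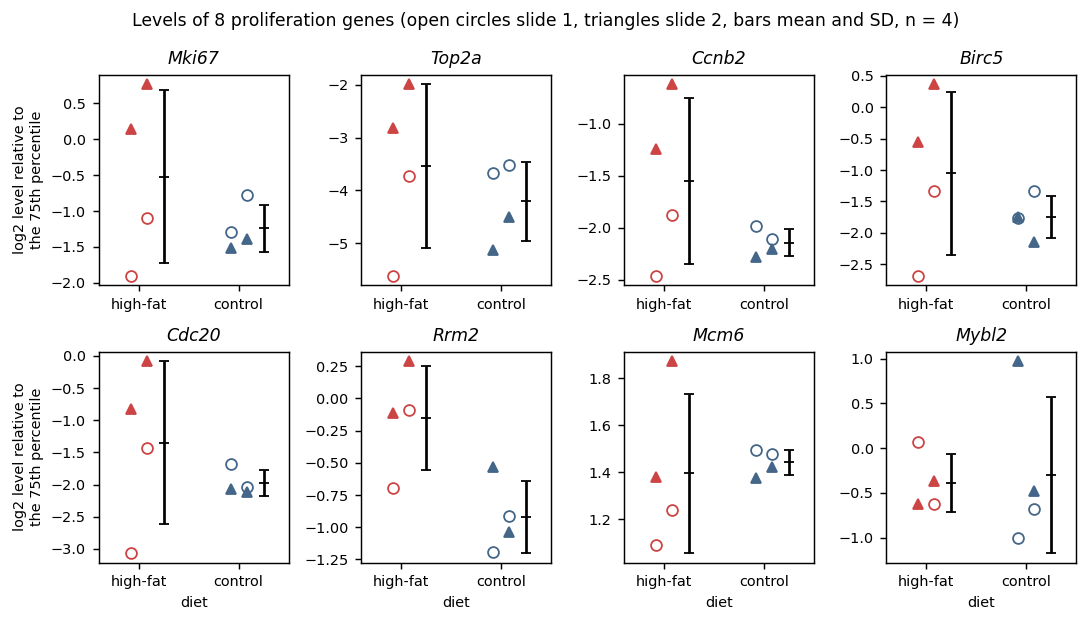
Log2 level relative to the 75th percentile of the array for 8 proliferation genes on each array, high-fat left of control, with open circles for slide 1 and triangles for slide 2, and a bar for the mean and SD of the 4 samples of a diet. For Mki67, Top2a, Ccnb2, Birc5 and Cdc20 the 2 high-fat triangles lie above every other point, whereas Rrm2 is higher on both slides and Mybl2 is highest on control array 3.

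Compared between the diets over all 8 arrays, the proliferation genes had a median log2 difference of 0.28, high-fat minus control, where the median of all genes was 0.00093. That median was 0.70 with normexp, 0.10 with the deposited table, 0.44 with array weights, 0.49 without high-fat replicate 1, 0.16 without high-fat replicate 3 and 0.089 without high-fat replicate 4. The difference was above 0 for 30 of the 36 and below 0 for 6, where 10035 of all genes were above and 9960 below. At an unadjusted p under 0.05, 3 of the 36 were higher and 0 lower in limma, against 2.59% of all genes higher and 3.27% lower. They were Cdk1, with a log2 difference of 1.16 ± 0.48 (unadjusted p 0.040) on the brightest of its disagreeing probes, Rrm2 with 0.77 ± 0.23 (0.0090) and E2f1 with 0.64 ± 0.23 (0.023, SE). None passed the threshold after Benjamini-Hochberg adjustment over all genes: 0 of 36 here and 0.00% of all genes, and the smallest adjusted p of the 36 was 0.685. Mki67 averaged -0.52 ± 1.20 in the high-fat samples and -1.24 ± 0.32 in the controls (SD, n = 4 each), a log2 difference of 0.72 ± 0.54 (SE, adjusted p 0.923). Top2a averaged -3.54 ± 1.55 in the high-fat samples and -4.21 ± 0.75 in the controls. The 4 high-fat and the 4 control samples overlapped for all 36 genes. Of all genes 1.73% were higher and 1.66% lower without overlap, so 0 of 36 is near the share over all genes. Without high-fat replicate 1, 16 of the 36 had higher signal at an unadjusted p under 0.05 and 0 had lower, against 5.34% and 5.02% of all genes. Without replicate 3 or replicate 4 of the high-fat diet 1 was higher, Rrm2 in each case.

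The diets were next compared on each slide. On slide 1 the median log2 difference of the 36 genes was -0.15, with 26 below 0, against 46.0% of all genes. This median rests on high-fat replicate 1: it was 0.056 without that sample and -0.39 without high-fat replicate 2, and 0.69 with normexp and 0.035 with normexp without smeared spots. On slide 2 the median was 0.76, with 33 above 0, against 42.3% of all genes. This slide 2 median was 0.24 with the deposited table, 0.43 with normexp and from 0.60 to 1.12 with a sample left out. For 25 of the 36 the difference was below 0 on slide 1 and above 0 on slide 2, which 17.9% of all genes showed. On slide 1 the 2 high-fat arrays stood below the 2 controls of the slide for 10 of the 36 (15.9% of all genes) and above them for 5 (24.5%). On slide 2 they stood above both controls for 26 (17.2%) and below them for 0 (21.9%). In limma on slide 1 alone, 0 of the 36 had higher signal at an unadjusted p under 0.05 and 2 had lower (5.27% and 2.54% of all genes), and on slide 2 alone 21 had higher and 0 had lower signal (3.08% and 4.44%). A value on a slide rests on 2 samples of each diet.

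**Figure D3:**
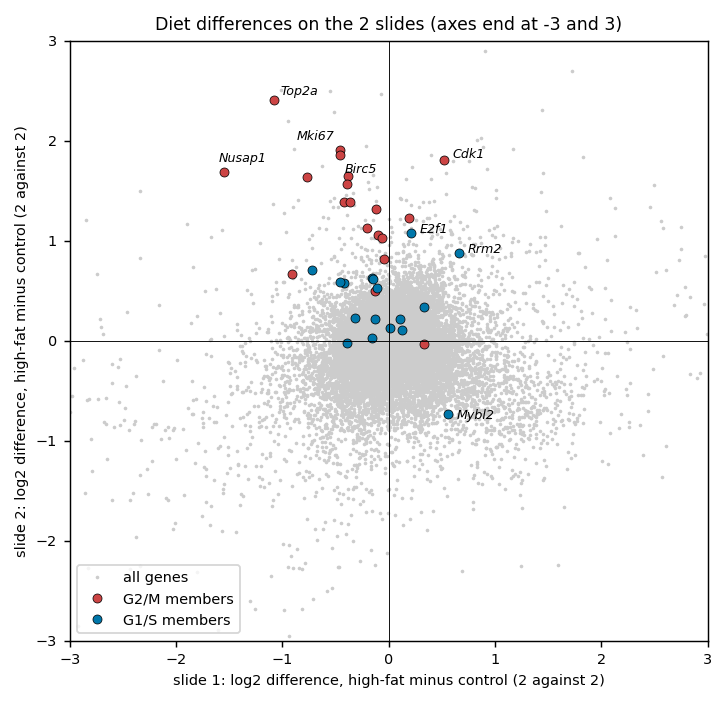
Log2 difference, high-fat minus control, on slide 1 (horizontal) and on slide 2 (vertical), each from 2 against 2 arrays, for all genes (grey) and for the G2/M (red) and G1/S (blue) proliferation genes, with axes that end at -3 and 3. Most red points lie at the upper left, where the slide 1 difference is below 0 and the slide 2 difference above 0, with Top2a, 1 array of which on each slide is not well above background, at -1.08 and 2.40.

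The test of the difference between the slides gave 21 of the 36 genes with a lower diet difference on slide 1 than on slide 2 at an unadjusted p under 0.05, and 0 with a higher one, against 1.49% of all genes lower and 5.38% higher. The median of the 36 was -1.02 on the log2 scale, where that of all genes was 0.069, and 33 of the 36 lay below 0. Of all genes 8355 lay below 0 and 11604 above. No gene passed the adjusted threshold in this fit (0.00% of all genes), which has 4 residual degrees of freedom, and the adjusted p of the 36 ran from 0.708 to 0.997. The smallest unadjusted p was that of Ccna2, with -1.81 ± 0.29 (SE). The count of 21 was 10 when high-fat replicate 4 was left out and 13 when control replicate 2 was. With normexp background correction it was 0 and the median 0.18, and without the 7 smeared spots of high-fat array 2 that correction gave 13 and -0.37.

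Most of these were G2/M genes. Of 19 measured G2/M genes, 16 had a lower diet difference on slide 1 than on slide 2 at an unadjusted p under 0.05 in that test, with a median of -1.57, against 5 of 17 G1/S genes, with a median of -0.37. The share of all genes was 1.49%. Both high-fat arrays of slide 2 were the highest for 16 of the 19 G2/M genes and for 5 of the 17 G1/S genes, against 5.32% of all genes. The median slide 1 difference was -0.36 for the G2/M and -0.13 for the G1/S genes, and the median slide 2 difference 1.38 and 0.34. The difference between these 2 groups of genes was not tested. The 3 G2/M genes for which another array came between were Bub1b, Kif20a and Tpx2.

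Across the 8 arrays most of the genes varied together. Each gene was correlated with the per-array median of the others, as a description over 8 arrays that share their scaling: Pearson r had a median of 0.871 and ran from -0.271 to 0.980, and was over 0.8 for 21 of the 36. Ube2c, Cenpe, Cdc20 and Ccnb2 were the closest to the rest, at 0.980, 0.979, 0.972 and 0.968. Mybl2 was the one below 0, and Tyms, Tpx2 and Mcm7 had the next lowest values, 0.407, 0.410 and 0.441.

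Between the slides themselves, with diet as a covariate, 3.39% of all genes passed the adjusted threshold (677 of 19987) and 1 of the 36 did. That gene was Cdc45, which was lower on slide 1 than on slide 2 by a log2 difference of -0.50 ± 0.094 (SE, adjusted p 0.038 in limma), with all 4 arrays of slide 1 below all 4 of slide 2. Its call was lost in 15 of the 18 other settings tried, those that left out any 1 array among them, with adjusted p from 0.059 to 0.859, and its sign turned with normexp. At an unadjusted p under 0.05, 7 of the 36 were lower on slide 1 and 0 higher, against 14.1% and 5.05% of all genes, so 7 of 36 is near the share over all genes. The median of the 36 was -0.51, where that of all genes was -0.025. On the control arrays the level was not lower on slide 1: the per-array median of the 36 was -1.81 and -2.07 there and -2.06 and -2.18 on slide 2.

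The 6 genes that did not pass the filter were Ccne2, Cdc6, Aurkb, Bub1, Kif11 and Kif23. Ccne2, a G1/S cyclin, and Aurkb, the kinase of the chromosomal passenger complex, were well above background on 0 arrays. The probe of Bub1, a checkpoint kinase, and 1 of 2 probes of Cdc6, which loads the helicase, were well above background on high-fat array 4 alone, with levels of -4.61 and -4.27. Kif23, a kinesin of the midbody, was measured on high-fat arrays 3 and 4 and control array 2, with -2.80, -4.47 and -4.85. Kif11, the kinesin that separates the spindle poles, was measured on control array 1 alone, at -5.31. Of the 36 that passed, 33 were well above background on all 8 arrays.

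Cell cycle genes outside the 42 were taken from a list of mitosis genes and a list of replication genes. Of 46 further mitosis genes, 29 were measured. In the limma test of the difference between the slides, 15 of them had a lower diet difference on slide 1 than on slide 2 at an unadjusted p under 0.05 and 0 a higher one. Of all genes 1.49% were lower and 5.38% higher. The median of the 29 was -0.80. Both high-fat arrays of slide 2 were the highest for 19 of the 29, against 5.32% of all genes. Cdca8, a partner of survivin, had levels of -3.18, -2.25, -1.31 and -0.35 on high-fat arrays 1 to 4, against -1.95, -2.23, -2.63 and -2.52 on control arrays 1 to 4. High-fat arrays 3 and 4 were on top there as well, and Ccnf, the cyclin F of an SCF ubiquitin ligase, Cdca3, a trigger of mitotic entry, and Tacc3, a spindle protein, had log2 differences of -0.52, -0.11 and -0.26 on slide 1 and of 1.34, 1.54 and 0.54 on slide 2. Of 35 further replication genes, 33 were measured and 4 were lower in that test (1.49% of all genes), with a median of -0.25. Those were Pole, the leading-strand polymerase, Chaf1a of the chromatin assembly factor, the clamp loader subunit Rfc3 and the origin recognition subunit Orc2. Their slide 2 differences were 1.05, 1.21, 0.21 and 0.08.

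Of 22 G1 cyclins, G1 kinases, inhibitors and pocket proteins, 20 were measured and 1 was lower in that test (1.49% of all genes), with a median of 0.018. It was Rbl1, the pocket protein p107, with log2 differences of -0.20 on slide 1 and 0.44 on slide 2. E2f2, an activator E2F, differed by 0.15 and 0.41, and Cdkn2c, the inhibitor p18, by 0.18 and 0.49. Cdkn1c, the inhibitor p57, was lower on both slides, by log2 differences of -0.37 and -0.82, with levels of -2.53, -2.81, -2.43 and -2.96 on high-fat arrays 1 to 4, against -2.12, -2.48, -2.0 and -1.76 on control arrays 1 to 4. None of these passed the adjusted threshold.

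The genes outside all lists whose pattern was most like the per-array median of the 36, by Pearson r over 8 arrays, were 1190002F15Rik (now Lockd) at 0.963, Rad51ap1 at 0.961, Rhoa at 0.947, Hmgn5 at 0.938, Cdkn3 at 0.930, Asf1b at 0.927, Guca1a at 0.925, 2010016I18Rik at 0.924, Kif20b at 0.922, Gabrd at 0.920, Aspn at 0.919 and Usp18 at 0.918. Those with the widest slide 2 differences were Cdkn3, at 1.66, Asf1b, at 1.40, Kif20b, at 1.23, Lockd, at 1.21, and Rad51ap1, at 1.02. Rad51ap1 acts in recombination repair, Cdkn3 is a phosphatase of CDKs, Asf1b a histone chaperone and Kif20b a kinesin of cytokinesis. Rhoa, a small GTPase, differed by 0.21 on slide 2 and matched in pattern alone.

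Markers of beta cells and of other cell types also varied between the arrays. The 10 beta cell markers had mean levels of 5.24, 5.11, 5.11 and 4.89 on high-fat arrays 1 to 4, against 5.08, 5.17, 5.18 and 5.25 on control arrays 1 to 4, lowest on high-fat array 4, where the median of the proliferation genes was highest. Of the 10, 9 correlated below 0 with that median over the 8 arrays, as a description. They ran from Slc2a2, the glucose transporter, at -0.868 and Slc30a8, the zinc transporter of insulin granules, at -0.771 to Ucn3 at -0.18 and Iapp at -0.092. G6pc2 went the other way, at 0.536. The acinar markers all correlated below 0 as well, from Cela2a at -0.683 to Ptf1a at -0.283. A correlation below 0 was therefore not particular to the beta cell list. Alpha cell markers ran from Gcg at -0.749 to Ttr at 0.613, and stellate cell and pericyte markers from Des at -0.165 to Pdgfrb at 0.835. The share of all genes below 0 was not counted. The 8 measured stellate cell and pericyte markers (of 9 listed, Pdgfra not passing) had mean levels of -1.49, -1.06, -1.26 and -0.55 on high-fat arrays 1 to 4, against -1.09, -1.64, -1.31 and -1.10 on control arrays 1 to 4. High-fat array 4 was on top, and 3 of the 8 were highest on both high-fat arrays of slide 2 (5.32% of all genes). The acinar markers ran the other way, with 10 of 10 higher on slide 1 and 10 of 10 lower on slide 2 in the high-fat samples. Of all genes 10756 were higher and 9151 lower on slide 1, and 11494 were lower and 8432 higher on slide 2. Mean levels of the acinar markers ran from 6.95 to 7.79 on the high-fat and from 6.67 to 7.77 on the control arrays. The 10 lymphocyte markers had mean levels of -3.30, -1.67, -3.47 and -1.06 on high-fat arrays 1 to 4, against -1.51, -1.57, -0.76 and -1.82 on control arrays 1 to 4. Their mean was lowest on high-fat array 3, where the proliferation genes were high, and on high-fat array 1, where the proliferation genes were low. It includes values below the lowest level well above background of the array, such as Cd3d at -7.18 on high-fat array 1 and -7.52 on high-fat array 3. Not all markers followed the mean. Cd3e stood above all controls on high-fat array 3, at 3.24, and Cd4 was lowest on control array 1, at 1.56. The mean of 8 measured macrophage markers ran from -0.96 to -0.10 on the high-fat and from -0.46 to 0.30 on the control arrays, that of 8 endothelial markers from 0.77 to 1.08 on the high-fat and from 0.70 to 1.18 on the control arrays, and that of 6 ductal markers from -1.67 to -0.83 on the high-fat and from -1.90 to -0.97 on the control arrays. The mean of the alpha cell markers ran from 1.47 to 1.94 on the high-fat and from 2.17 to 2.71 on the control arrays, and that of delta and PP cell markers from 2.47 to 2.77 on the high-fat and from 2.91 to 3.21 on the control arrays. Both list means lay lower on all 4 high-fat arrays than on any control array. Of the single markers, 3 of 6 alpha and 3 of 5 delta and PP markers were lower without overlap (1.66% of all genes). Gcg, Ttr and Ppy were among those that overlapped. Schwann cell markers averaged from -2.03 to -1.55 on the high-fat and from -1.79 to -1.46 on the control arrays, and red cell markers from -1.15 to -0.84 on the high-fat and from -1.38 to -0.61 on the control arrays. The part of these cell types in the levels of the proliferation genes was not tested.

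**Figure D4:**
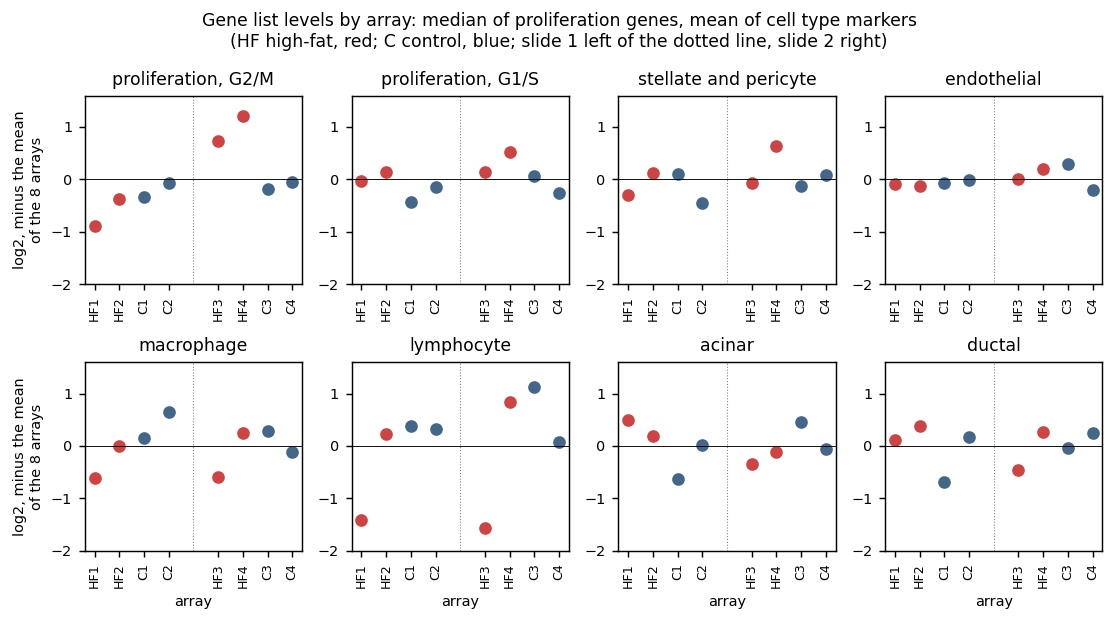
Level of gene lists on each array as a log2 value minus the mean of the 8 arrays, as the median over genes for the proliferation genes and the mean over markers for the cell types, with high-fat arrays in red left of control arrays in blue, slide 1 left and slide 2 right. The G2/M list is highest on high-fat arrays 3 and 4, the stellate and pericyte list on high-fat array 4 alone, and the lymphocyte list is lowest on high-fat arrays 1 and 3.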

How the data were processed

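RNA was labelled with Cy3 and hybridised to 8 Agilent arrays, 4 samples on the high-fat and 4 on the control diet. Agilent Feature Extraction 11.5.1.1 wrote the scanner files, per the file headers, and they hold the intensity of each spot as the authors deposited it, 43020 non-control spots an array. A value table that the authors deposited is in log2 units, and for it the submitters' processing notes name limma without a version; its columns have medians of 8.681 to 8.689, each matched its own array best (r of centred values 0.596 to 0.689), and its background and normalization steps are not known. It holds 52 of the 61 member probes.

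Levels are log2 of the processed intensity minus the 75th percentile of the array. Control spots and 125 to 228 outlier spots an array were left out, and spots of a probe were averaged. A probe had to be well above background on 4 or more arrays, and a gene with several such probes was represented by the one of highest mean. The slide is the barcode in the scanner file name. The functions lmFit and eBayes of limma 3.58.1 (R 4.3.3) were run over 19997 genes, with Benjamini-Hochberg adjustment and a threshold of 0.05: diet, slide with diet as covariate, and the slide by diet interaction. The median SE was 0.17 for a diet difference and 0.29 for the interaction. The fits were tested on simulated data. A bound for a dim probe sets the brighter group's mean against, per array, the higher of the lowest signal well above background and the dim probe's own.

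The members, the lists and the promoters shown were chosen with earlier results of these data known, and the lists were written by hand. Values on every array are given for Mki67, Top2a, the 2 members with the highest mean in each other role and any member past an adjusted p of 0.05. Of each further list the 4 genes with the smallest unadjusted p in the interaction fit are named, and outside the lists the 12 genes most correlated with the members' median, passing over 6 names that are not in RefSeq. Promoters were searched with Python 3.11.15 and pandas 2.3.3, and figures drawn with matplotlib 3.10.9. Alternatives were normexp background correction (offset 50), quantile or median scaling, the deposited table, 2 other filters on dim probes, probes averaged per gene, trended robust eBayes, array weights, slide or replicate block, 1 slide at a time, and 1 sample left out at a time. Normexp with spots removed where the local background is over 4 times the array's median was chosen after seeing the data.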

Additional observations from a re-analysis of the deposited data

Results flagged for a closer look

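E2f1 stood at -0.50 on high-fat array 1, away from the other high-fat arrays, which lay between -0.03 and 0.05. By the gap test used here (Dixon, 4 samples) chance alone sets about 1 in 20 groups apart.

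Among probes too dim to pass the filter, 5 were well above background on high-fat arrays and on 0 control arrays. A Birc5 probe (A_55_P1983769) and a Ccnb1 probe (A_55_P2128668) were so on 2 high-fat arrays each, replicates 3 and 4. A Bub1 probe (A_51_P123405), another Ccnb1 probe (A_55_P1952256) and a Cdc6 probe (A_52_P219473) were so on 1 high-fat array each, replicate 4. In the other direction, 2 probes were well above background on control arrays and on 0 high-fat arrays, a Cdk1 probe (A_55_P2016652) on replicates 2 and 4 and a Kif11 probe (A_51_P481398) on replicate 1. Of the 16 dim probes of these genes, 31.2% were measured in the high-fat samples alone and 12.5% in the controls alone, against 6.07% and 10.9% of all 13345 dim probes.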

How the results depend on the processing

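With 4 samples a diet and 2 a slide, no diet or interaction call was made for a member at an adjusted p under 0.05 in any setting tried, and the diet differences of Mki67, Top2a, Birc5 and Cdc20 turned sign on slide 1 alone and in no other setting. Over all genes, 2 were higher by diet without high-fat replicate 1 (Gm2115 and Gsto2, range over single samples left out 0 to 2), and 1, Gfra3, was lower with the deposited table and 1, also Gfra3, with trended robust eBayes. These were named after their values were seen. The count of members higher by diet at an unadjusted p under 0.05, 3 as reported, was 6 with normexp, 8 with array weights, 0 on slide 1 alone, 21 on slide 2 alone (3.08% of all genes) and from 1 to 16 with a sample left out. The share of all genes is not given for normexp, array weights, the replicate block or most samples left out, so those counts have no comparison. The count lower, 0 as reported, was 2 on slide 1 alone (Mcm10 and Bub1b) and from 0 to 1 with a sample left out (Mcm4, without high-fat replicate 4). Same-numbered samples, which also share a slide, deviated together at an r of 0.21, 0.40, -0.0041 and 0.30. The same-numbered control was the best match for high-fat replicates 1, 2 and 4, and control 1 (0.16) for high-fat replicate 3. The labels name no pairing, and whether the numbers pair the samples was not tested. With the replicate number as a block 5 members were higher by diet and 0 passed the adjusted threshold. The slide 1 median was 0.69 with normexp, and the slide 2 median 0.24 with the deposited table and from 0.60 to 1.12 with a sample left out. In the interaction, members lower numbered 0 with normexp, 13 with normexp without smeared spots and from 10 to 23 with a sample left out, and members higher from 0 to 1 (Mybl2, without control replicate 4). The interaction median was 0.18 with normexp, -0.37 without smeared spots and -0.26 with the deposited table. Normexp moved the median diet difference of all genes to 0.13. Genes that differed by slide numbered 0 with normexp, 186 without smeared spots, 329 with median scaling, 354 with no filter, 2018 with array weights and from 32 to 605 with a sample left out. Members that did numbered 0 with normexp, without smeared spots, with quantile or median scaling, the deposited table, no filter or trended robust eBayes, 2 with the mean of probes or array weights, and from 0 to 1 with a sample left out. The log2 slide difference of Cdc45 was 0.28 with normexp. Diet differences turned on slide 1 alone for Mki67 (-0.46), Top2a (-1.08), Pcna (-0.13), Rrm1 (-0.11), Ccnb2 (-0.12), Mybl2 (0.56), Birc5 (-0.46), Aurka (-0.098), Cdc20 (-0.39), Ube2c (-0.36), Prc1 (-0.063) and Cenpe (-0.40). Pcna was -0.24 with normexp. Mcm6 was 0.027 with median scaling, 0.00046 with array weights and 0.23 on slide 2 alone, and Mybl2 was 0.043 with normexp and 0.017 with array weights. With a sample left out, diet differences ran from -0.078 to 0.16 for Pcna, from -0.21 to 0.056 for Mcm6, from -0.32 to 0.33 for Mybl2 and from -0.0037 to 0.23 for Cdc45. The interaction was 0.34 for Top2a and 0.039 for Ccnb2 with normexp, and -0.12 and -0.10 for Cdc45 with quantile and median scaling. With a sample left out it ran from -0.51 to 0.091 for Rrm2, from -0.35 to 0.33 for Ccne1 and from -0.082 to 0.12 for Cdc45. The causes of these changes were not tested.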

Other observations

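B cell markers separated the high-fat samples in another way than the proliferation genes did. Ms4a1, which encodes CD20, had levels of -6.03, -1.39, -6.25 and -1.01 on high-fat arrays 1 to 4, against -0.98, -1.69, -0.36 and -2.97 on control arrays 1 to 4. Its values on high-fat arrays 1 and 3 lay below the lowest level well above background there, -5.14 and -5.23. The size of those gaps is therefore uncertain. Cd79b, a subunit of the B cell receptor, had levels of -4.12, -0.61, -4.12 and -0.07 on high-fat arrays 1 to 4, against -0.14, -0.44, 0.52 and -1.52 on control arrays 1 to 4. High-fat arrays 1 and 3 were the lowest of the 8 for both genes, and both lay at position 2 of their slide. These genes were chosen after their values were seen.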
